A study of Mus musculus with 2 samples.

Results

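A set of 10 genes that encode non-collagen proteins of the extracellular matrix was followed in cultured mouse cavernous endothelial cells (MCECs). They are 3 small leucine-rich proteoglycans (Dcn, Bgn and Lum), 2 elastic fibre genes (Eln and Fbn1) and 5 adhesive or matricellular glycoproteins (Fn1, Sparc, Thbs1, Tnc and Postn). They were chosen by symbol from the 23183 gene symbols of the deposited tables, and all 10 were found. The values of all transcript rows of a symbol were summed in each library.

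RNA was sequenced as 1 library per condition. In both, primary MCECs from the penis of 8-week-old male C57BL/6J mice, used at passages 2 to 4, were kept in high glucose (HG, 30 mM). HG+HBS cells received the vehicle, HEPES-buffered saline. HG+PC-NVs cells received 1 µg/mL of PC-NVs, vesicle-like particles made by forcing cultured mouse cavernous pericytes through membranes of decreasing pore size. By the methods, cells were lysed after 72 hours of HG, the last 24 of them with PC-NVs, whereas the sample labels give 5 days of glucose. With 1 library per condition no test of a difference was possible. RNA brought in by the particles and RNA made by the cells cannot be told apart, nor can, in a bulk library, fewer cells of a type and less RNA per cell.

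The extracellular matrix is a mesh of secreted proteins that holds cells in place and stores growth factors. Small leucine-rich proteoglycans bind collagen fibrils, control their diameter and carry glycosaminoglycan chains. Elastin laid on fibrillin microfibrils gives erectile tissue and vessel walls their recoil, and fibronectin forms fibrils on which other matrix proteins assemble. Matricellular proteins such as tenascin C, thrombospondin 1, SPARC and periostin change how cells adhere rather than bear load, and several are known for their appearance during wound repair.

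Values are normalized FPKM (fragments per kilobase of transcript, scaled to library size), which are per length and so allow levels of different genes to be compared. Ratios are given as log2 ratios of FPKM + 1, HG+PC-NVs over HG+HBS, and folds are taken from them. The libraries hold roughly 1.33e+07 (HG+HBS) and 1.16e+07 (HG+PC-NVs) fragments, as estimated from the step between low values, since the tables hold no counts. The 95% intervals below rest on this estimate and cover counting error only. A gene entered the background when the mean of its 2 log2(FPKM + 1) values was at least 1, which 11785 genes and all 10 matrix genes did.

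The culture was first compared with the marker genes of the labelled cell type. Of 16 endothelial markers, 6 passed the low-value filter, and all 16 summed to 70.7 FPKM with HBS and 53.3 FPKM with PC-NVs. Cdh5, VE-cadherin, had 5.05 and 5.73 FPKM, and Eng, endoglin, which fibroblasts also express, 29.0 and 21.4 FPKM. Plvap (4.90 and 2.36 FPKM) was the only endothelial marker past a fold of 1.5. It was 16.7% of the 6, against 3.57% of all genes that were lower past this fold. Pecam1, the endothelial adhesion molecule CD31, was listed at 1.05 and 0.938 FPKM, Kdr, a VEGF receptor, at 0.518 and 0.438 FPKM, and Vwf at 0.158 and 0.128 FPKM. The 10 fibroblast markers summed to 1585 and 1252 FPKM, led by Thy1 (549 and 412 FPKM) and Col1a2 (312 and 198 FPKM), with Clec3b at 0 in both libraries and Tcf21 at or near 0. The 12 mural cell markers summed to 121 and 95.1 FPKM, and Higd1b was at 0 in both. The 9 myeloid markers, none of which was at 0, summed to 338 and 562 FPKM, where Cd14 (36.6 and 252 FPKM) made up most of the gain. The 5 Schwann cell markers summed to 1.95 and 2.27 FPKM. The defining endothelial markers were thus low in both libraries labelled as MCECs, while fibroblast markers were high. Their part in the matrix values was not tested.

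In both libraries the matrix genes ranged from among the highest of all genes to near the detection limit. In HG+HBS, Fn1 was highest with 1344 FPKM, rank 50 of all 23183 symbols, and was followed by Bgn (1113 FPKM), Dcn (623 FPKM) and Sparc (476 FPKM). Tnc (106 FPKM), Thbs1 (95.4 FPKM), Fbn1 (51.0 FPKM) and Lum (45.4 FPKM) lay in the middle, and Eln (4.72 FPKM) and Postn (1.37 FPKM) were lowest. The counting intervals of neighbours in this order did not overlap. In HG+PC-NVs the order was the same except that Dcn moved ahead of both and came first with 1283 FPKM, before Fn1 (964 FPKM) and Bgn (907 FPKM). There, only the intervals of the lowest pair overlapped, Eln (1.41 FPKM, 1.08 to 1.80) and Postn (1.00 FPKM, 0.701 to 1.37).

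**Figure D1:**
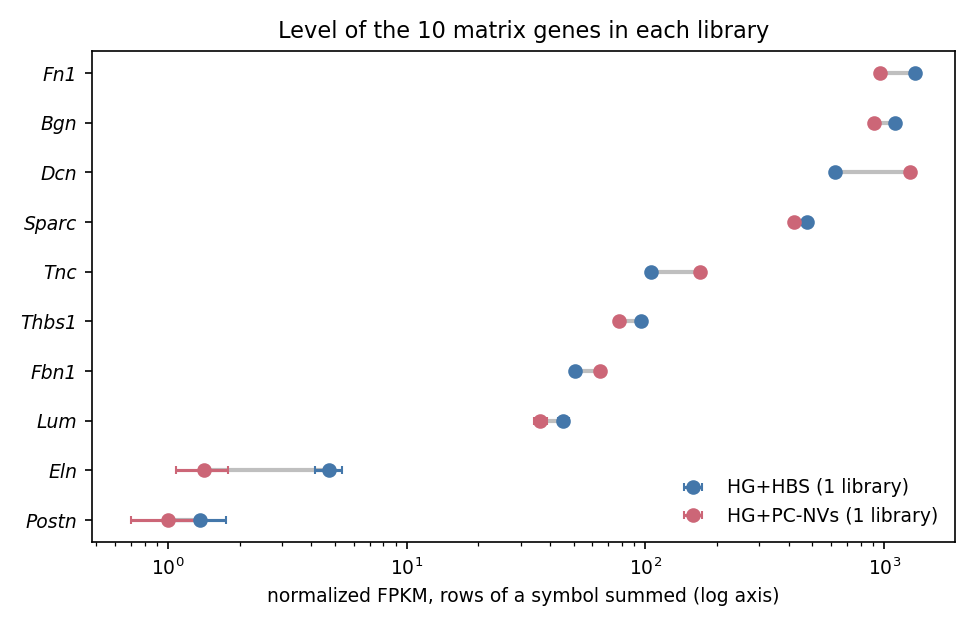
Level of each of the 10 matrix genes on a log axis of normalized FPKM, with HG+HBS in blue, HG+PC-NVs in red and bars for the 95% Poisson counting interval of the estimated fragments. Dcn is the only one of the 4 highest genes whose red point lies to the right, at 1283 against 623 FPKM, and Eln shows the widest gap, at 1.41 against 4.72 FPKM.

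Summed over the 10 genes, the level was nearly the same in the libraries, 3860 FPKM with HBS and 3923 FPKM with PC-NVs. This was 0.740% and 0.676% of all summed FPKM. Its make-up differed. Dcn gave 16.1% of the sum with HBS and 32.7% with PC-NVs, whereas Fn1 gave 34.8% and 24.6%, and Bgn 28.8% and 23.1%.

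Of the 10 genes, 3 were higher and 7 lower in HG+PC-NVs, and 51.6% of all 11785 genes were lower. The 7 include Postn, whose counting interval holds a ratio of 1, so that its direction is not settled. Past a fold of 1.5, Dcn and Tnc were higher, 2 of 10, against 5.33% of all genes, and Eln was lower, 1 of 10, against 3.57%. Past a fold of 2, Dcn was higher, 1 of 10 against 2.38%, and Eln lower, 1 of 10 against 0.798%. The median log2 ratio of the 10 genes was -0.27, against -0.01 over all genes. Among the 2652 genes whose mean log2 level reached 5 the median was 0.04, and among the 8 matrix genes at that level it was -0.24.

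**Figure D2:**
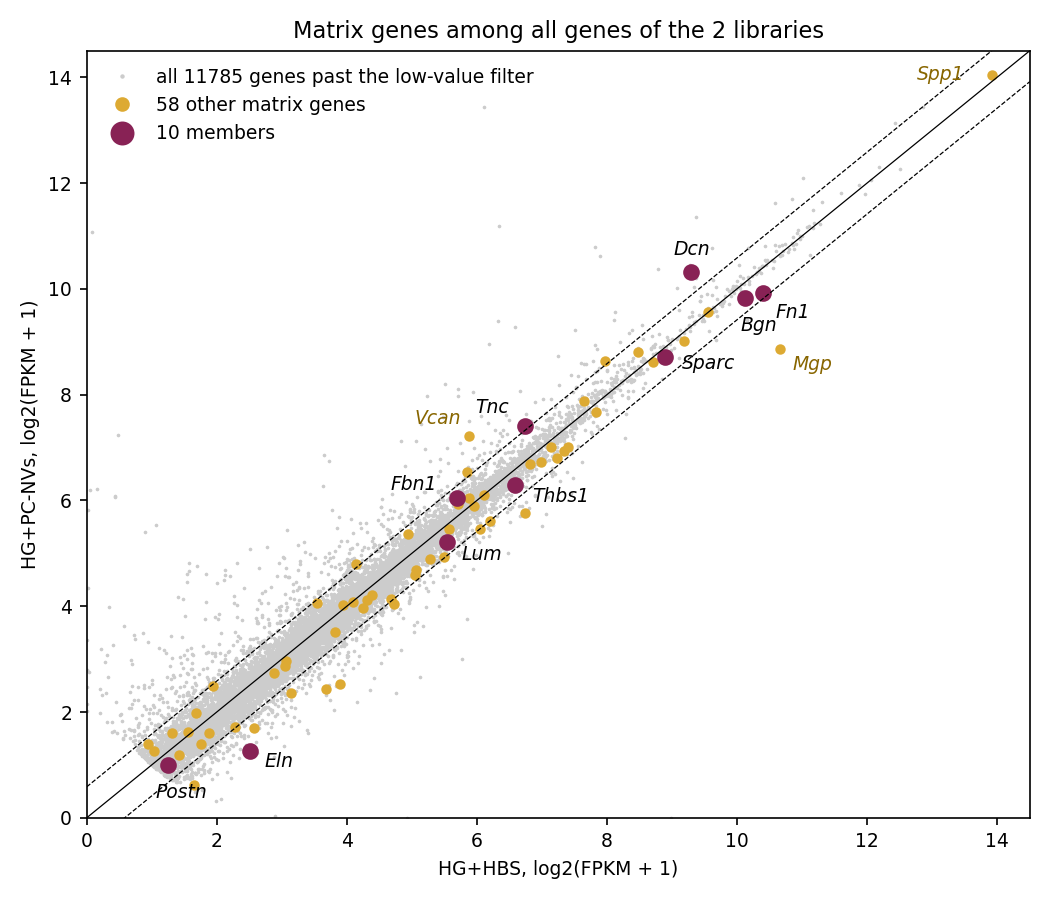
Level of each gene in HG+PC-NVs against HG+HBS, both as log2(FPKM + 1), for the 11785 genes past the low-value filter (grey), 58 other matrix genes (yellow) and the 10 matrix genes (purple); the solid line marks equal levels and the dashed lines a fold of 1.5. Dcn and Tnc lie above the upper dashed line and Eln below the lower one, and the other 7 lie between them.

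Among the small leucine-rich proteoglycans, Dcn stood apart from Bgn and Lum. Dcn encodes decorin, which binds collagen fibrils and growth factors of the TGF-beta family. It had 623 FPKM with HBS and 1283 FPKM with PC-NVs, a 2.06-fold higher level with a log2 ratio of 1.04 (95% interval of the linear ratio 2.02 to 2.10, from about 14613 and 26259 fragments). Its ratio ranked 255 from the top of 11785 genes, and its level moved from rank 130 to rank 66 of all symbols. Dcn has 2 transcript rows, and both were higher in HG+PC-NVs, from 363 to 848 FPKM in one and from 260 to 434 FPKM in the other.

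Bgn encodes biglycan, the closest relative of decorin, and its soluble form can signal through Toll-like receptors. It had 1113 and 907 FPKM, 1.23-fold lower with PC-NVs, a log2 ratio of -0.29. Lum, lumican, which regulates fibril spacing, had 45.4 and 36.3 FPKM, 1.24-fold lower, a log2 ratio of -0.31. Both ratios lay within a fold of 1.5 and outside counting error, with linear intervals of 0.802 to 0.829 for Bgn and 0.739 to 0.866 for Lum.

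Dcn and Lum are neighbours on chromosome 10 of GRCm38, both on the forward strand, Dcn from 97479609 to 97518143 and Lum from 97565128 to 97572703 (GENCODE M21). The gap between them is 47.0 kb. Beyond Lum lie Kera (97606879 to 97613692) and Epyc (97644068 to 97682454), further members of the same family. Kera, keratocan, had 1.94 and 2.09 FPKM and Epyc, epiphycan, 0.313 and 0.365 FPKM. Of these 4 neighbours only Dcn differed by more than a fold of 1.5. The counts of Kera and Epyc were too low to exclude a larger difference. Their linear ratio intervals were 0.756 to 1.56 and 0.419 to 3.13, and Epyc did not pass the filter. Bgn lies on chromosome X, from 73483602 to 73495933.

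The remaining 12 genes of a list of 15 small leucine-rich proteoglycans were much lower. Of them, 5 passed the low-value filter, and 0 of these 5 passed a fold of 1.5, against 5.33% of all genes higher and 3.57% lower. Omd, osteomodulin, came nearest with 2.85 and 4.62 FPKM, 1.46-fold higher. Aspn, asporin, and Ogn, osteoglycin, did not pass the filter, with 1.04 and 0.148 FPKM and 1.02 and 0.135 FPKM. Both were 1.78-fold lower with PC-NVs, from about 32.4 and 34.7 fragments with HBS to 4.01 and 4.03 with PC-NVs.

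The elastic fibre genes went different ways. Eln, which encodes elastin, lies on chromosome 5 from 134702593 to 134747323. It had 4.72 FPKM with HBS and 1.41 FPKM with PC-NVs, a log2 ratio of -1.25 and a 2.37-fold lower level. This was rank 50 from the bottom of 11785 genes. Because the level is low, the added 1 FPKM shortens the ratio, and the linear ratio was 3.34-fold lower (95% interval 2.56 to 4.44, from about 243 and 63.5 fragments). Fbn1, fibrillin 1, the main microfibril protein (chromosome 2, 125300594 to 125507993), had 51.0 and 64.8 FPKM, 1.27-fold higher, a log2 ratio of 0.34.

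A further 21 elastic fibre and microfibril genes were compared, of which 20 passed the filter. Their median log2 ratio was -0.17, with 5 higher and 15 lower (75% lower, against 51.6% of all genes). Past a fold of 1.5, 1 was higher, 5% against 5.33% of all genes, and 2 were lower, 10% against 3.57%. Mfap4, a microfibril-associated glycoprotein that binds elastin, was 2.36-fold lower, at 11.8 and 4.41 FPKM. Loxl3, a lysyl oxidase that cross-links elastin and collagen, was 1.97-fold lower, at 106 and 53.3 FPKM. Lox, an enzyme of the same family, went the other way, at 56.5 and 91.3 FPKM, 1.61-fold higher. The other 17 stayed within a fold of 1.5, among them Efemp2 (200 and 235 FPKM), which is needed for elastic fibre assembly, and Loxl1 (161 and 122 FPKM).

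Of the 5 adhesive and matricellular genes, Tnc alone passed a fold of 1.5. Tnc encodes tenascin C, a large matrix glycoprotein known from healing and inflamed tissue (chromosome 4, 63959785 to 64047015). It had 106 FPKM with HBS and 169 FPKM with PC-NVs, a log2 ratio of 0.67 and a 1.60-fold higher level (95% interval of the linear ratio 1.56 to 1.64, from about 10003 and 13995 fragments). Its ratio ranked 498 from the top. Tnc has 1 row, so its level could not be compared between rows, although GENCODE M21 lists 4 transcripts for it.

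Fn1 encodes fibronectin (chromosome 1, 71585520 to 71653200). It had 1344 and 964 FPKM, 1.39-fold lower with PC-NVs, a log2 ratio of -0.48. Its 7 transcript rows were all lower, with log2 ratios from -0.69 to -0.12. The row with the highest level went from 572 to 388 FPKM. The tables carry no transcript names, so the rows could not be assigned to splice forms of fibronectin. The highest row held 42.6% of Fn1 with HBS and 40.2% with PC-NVs. The share that moved most was that of the row with 210 and 194 FPKM, from 15.6% to 20.1%.

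Sparc, which encodes the collagen-binding protein osteonectin (chromosome 11, 55394500 to 55423183), had 476 and 419 FPKM, a log2 ratio of -0.18, and both of its rows were lower. Thbs1, thrombospondin 1, an inhibitor of angiogenesis that can activate TGF-beta (chromosome 2, 118111876 to 118127133), had 95.4 and 77.4 FPKM, a log2 ratio of -0.30. The level of Postn, periostin (chromosome 3, 54361109 to 54391037), was too low to compare. It had 1.37 and 1.00 FPKM, about 58.1 and 37.3 fragments, and its linear ratio of 0.735 had an interval of 0.485 to 1.10. Of its 3 rows, 2 were listed at 0 in HG+PC-NVs and the third was higher there, from 0.440 to 1.00 FPKM, so the row values could not settle a direction.

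**Figure D3:**
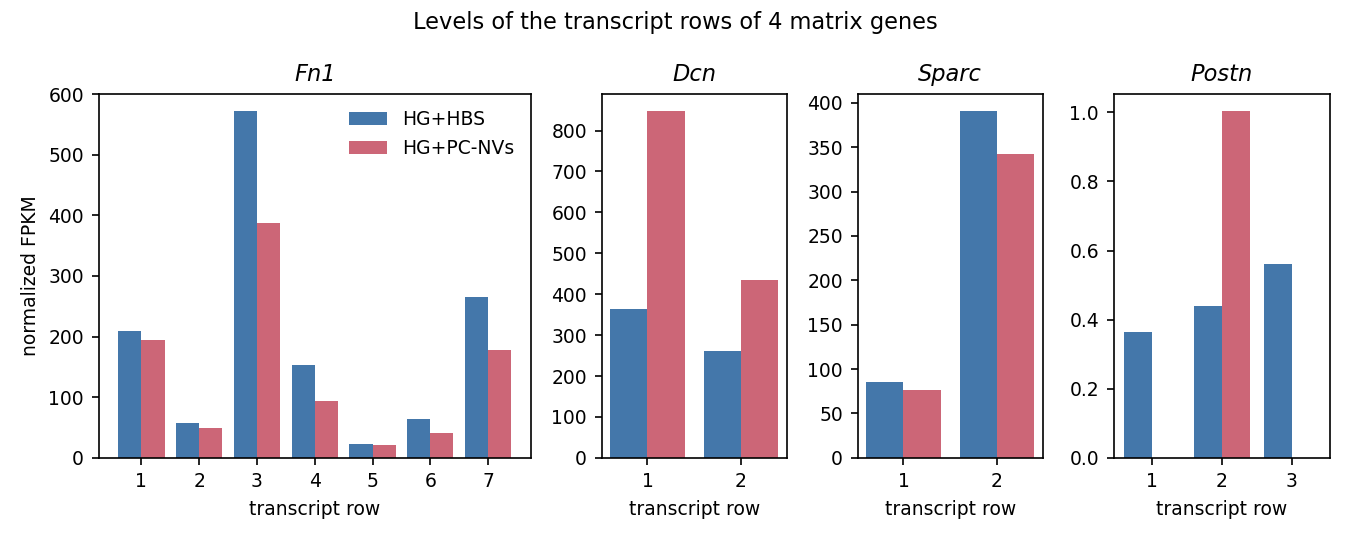
Normalized FPKM of each transcript row of Fn1, Dcn, Sparc and Postn in HG+HBS (blue) and HG+PC-NVs (red), with rows numbered in file order, 1 library per bar and a separate linear scale for each gene. The 7 Fn1 rows are all lower and both Dcn rows are higher in HG+PC-NVs, whereas the Postn rows, the highest at 1.00 FPKM, go both ways.

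For 5 of the 10 genes, Fn1, Fbn1, Eln, Thbs1 and Tnc, GENCODE M21 lists 1 gene on the opposite strand that overlaps them. The library kit keeps strand, but whether the counting used it is not given in the sources used here, so reads of the partners may be included.

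The promoters of 2 members are shown because Tnc passed the fold of 1.5 and Bgn, at a higher level, did not. RefSeq windows from 250 bases before to 50 after an annotated start were held for 5 of the 10 genes (Bgn, Fbn1, Postn, Sparc and Tnc). The windows of Tnc, chr4:64046887-64047186 on the reverse strand, 1 of 2 held for that gene, and of Bgn, chrX:73483351-73483650 on the forward strand, both of GRCm38.p6, read as follows, with TATAAA, one form of the TATA box, and the GC box GGGCGG, either strand, in capitals. Other forms of the TATA box were not searched and are not marked, such as the letters tatataag, which the Tnc window holds nearer to its start.
Tnc: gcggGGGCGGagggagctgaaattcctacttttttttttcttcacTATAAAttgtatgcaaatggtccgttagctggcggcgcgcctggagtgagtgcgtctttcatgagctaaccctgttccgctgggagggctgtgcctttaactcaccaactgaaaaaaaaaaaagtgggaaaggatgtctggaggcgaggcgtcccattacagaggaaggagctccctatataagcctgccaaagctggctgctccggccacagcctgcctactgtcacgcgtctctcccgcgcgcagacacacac
Bgn: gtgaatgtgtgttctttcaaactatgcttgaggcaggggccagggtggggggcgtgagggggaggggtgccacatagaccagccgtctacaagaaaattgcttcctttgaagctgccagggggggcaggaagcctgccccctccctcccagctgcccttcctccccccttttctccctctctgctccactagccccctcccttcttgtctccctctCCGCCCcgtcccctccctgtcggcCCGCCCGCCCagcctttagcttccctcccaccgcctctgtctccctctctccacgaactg

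In the Tnc window TATAAA begins at -205 and GGGCGG at -246 from the start. The Bgn window holds no TATAAA and has 3 reverse-strand matches to GGGCGG, which begin at -34, -10 and -6, the last pair overlapping. Of 32851 RefSeq windows of this length, 13.6% hold TATAAA and 35.7% hold GGGCGG. The AP-1 letters TGANTCA, searched on both strands, were in neither window and in 7.81% of all windows.

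Around these genes, 40 more adhesive and matricellular genes were compared, of which 26 passed the filter. Of the 26, 19 were lower and 7 higher in HG+PC-NVs (73.1% lower, against 51.6% of all genes), with a median log2 ratio of -0.23. Past a fold of 1.5, 7 were lower, 26.9% against 3.57% of all genes, and 2 were higher, 7.69% against 5.33%. This list and the other lists were chosen with earlier results of these data known, so such shares are not independent of the data. Mgp, which encodes matrix Gla protein, an inhibitor of calcification, had 1614 and 462 FPKM, a log2 ratio of -1.80. Ctgf, connective tissue growth factor (now Ccn2), had 13.8 and 4.75 FPKM, 2.58-fold lower. Svep1, an adhesion protein, had 2.15 and 0.535 FPKM, and Tnxb, tenascin X, which binds collagen, had 4.95 and 2.25 FPKM, 1.83-fold lower. Tenascin X and tenascin C thus went opposite ways. The 2 genes higher past a fold of 1.5 were Fstl1 (249 and 397 FPKM) and Agrn (16.6 and 26.8 FPKM). Spp1, which encodes osteopontin, ranked 1 among all symbols in both libraries, at 15551 and 16778 FPKM, a log2 ratio of 0.11.

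Among 14 large and other proteoglycans and link proteins, 7 passed the filter. Vcan, which encodes versican, a large hyaluronan-binding proteoglycan, was the only one past a fold of 1.5. Thus 1 of the 7 genes was higher past this fold, a share of 14.3% against 5.33% of all genes, and 0 were lower, against 3.57%. The level of Vcan was 57.7 FPKM with HBS and 147 FPKM with PC-NVs, 2.52-fold higher, a log2 ratio of 1.34. Prg4, lubricin, was high and nearly level, at 751 and 754 FPKM.

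The 4 matrix lists without the 10 genes hold 87 genes, of which 58 passed the filter and 29 did not. Past a fold of 1.5, 4 were higher, 6.90% against the 5.33% of all genes, and 9 were lower, 15.5% against 3.57%. Their median log2 ratio was -0.17. At a fold of 2, 1 was higher, 1.72% against 2.38% of all genes, and 4 were lower, 6.90% against 0.798%.

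Genes that build glycosaminoglycan chains and hyaluronan, the sugar part of proteoglycans, were mostly level. Of 29 genes 26 passed the filter, 18 higher and 8 lower (30.8% lower, against 51.6% of all genes), with a median log2 ratio of 0.07. Past a fold of 1.5, 4 were higher, 15.4% against 5.33% of all genes, and 1 was lower, 3.85% against 3.57%. Has1, a hyaluronan synthase, had 5.26 and 25.5 FPKM, 4.23-fold higher, and Ugdh, which makes the UDP-glucuronic acid used by such enzymes, had 89.3 and 135 FPKM, 1.51-fold higher. Csgalnact1, which starts chondroitin sulfate chains, had 14.7 and 23.5 FPKM. The lower one was Chst15, a chondroitin sulfotransferase, with 5.93 and 2.03 FPKM. Ext1, a heparan sulfate polymerase, had 65.6 and 84.1 FPKM.

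All 15 receptors of these matrix proteins passed the filter, 13 higher and 2 lower in HG+PC-NVs (13.3% lower, against 51.6% of all genes), with a median log2 ratio of 0.18. Of the 15, 2 were higher past a fold of 1.5, 13.3% against 5.33% of all genes, and 0 were lower, against 3.57%. Tlr2, a Toll-like receptor that binds soluble biglycan, had 6.80 and 27.2 FPKM, 3.62-fold higher, and Sdc1, the heparan sulfate proteoglycan syndecan 1, had 77.4 and 121 FPKM, 1.56-fold higher. The most abundant, Itgb1, integrin beta 1, had 214 and 233 FPKM, and Cd44, the hyaluronan receptor, 130 and 146 FPKM. Tlr2 is also expressed by myeloid cells, and of the 9 myeloid markers 5 were higher and 4 lower (44.4% lower, against 51.6% of all genes). Cd14, Adgre1 (7.44 and 42.5 FPKM) and Aif1 (2.93 and 12.9 FPKM) were higher past a fold of 1.5, 33.3% against 5.33% of all genes. The 4 lower ones, within it, were Lyz2 (212 and 193 FPKM), Cd68 (36.2 and 26.3 FPKM), Ctss (31.2 and 25.3 FPKM) and Csf1r (8.39 and 6.20 FPKM). Their part in the difference was not tested.

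**Figure D4:**
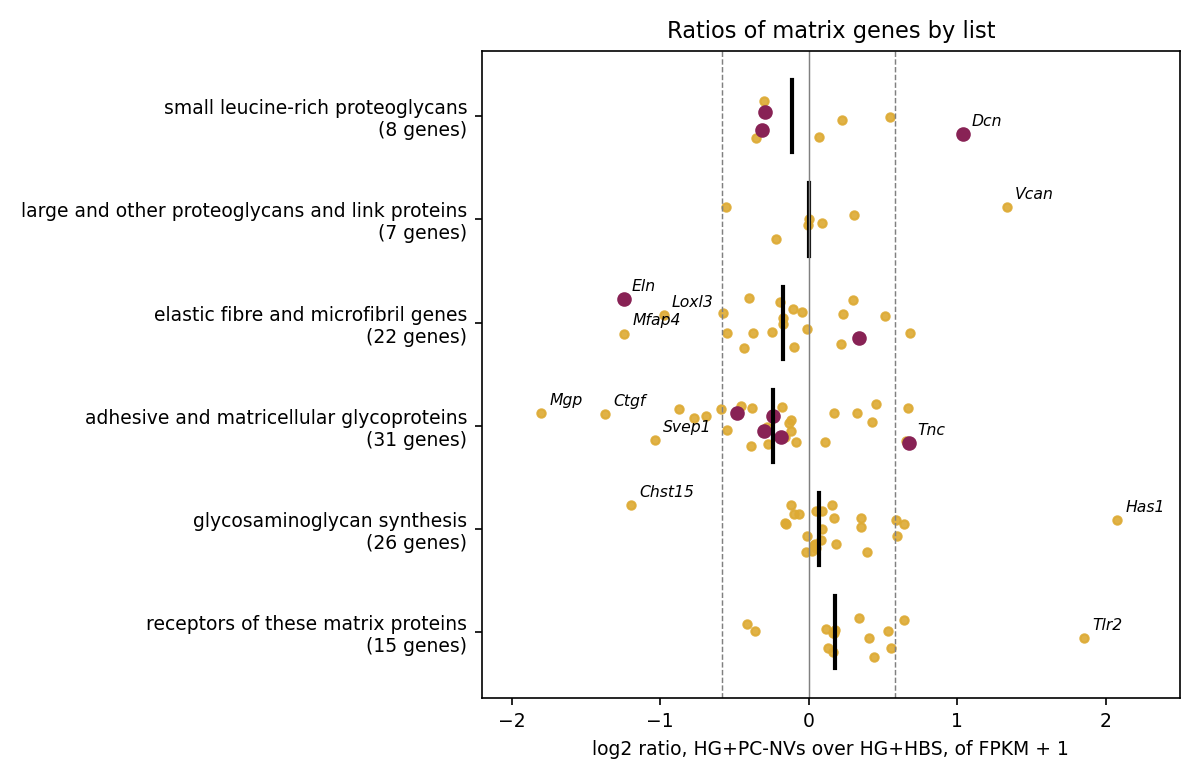
Log2 ratio of FPKM + 1, HG+PC-NVs over HG+HBS, of each gene past the low-value filter in 6 lists, with the 10 matrix genes in purple, other genes in yellow, black bars for list medians and dashed lines at a fold of 1.5. The medians lie between -0.24 for the adhesive and matricellular list and 0.18 for the receptors, and Dcn, Vcan, Has1 and Tlr2 lie far to the right of their lists.

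The contractile genes Acta2 (27.6 and 8.02 FPKM) and Tagln (17.3 and 7.34 FPKM), mural markers also found in myofibroblasts, were lower beside Eln, Mfap4 and Ctgf. The pericyte markers went both ways. Rgs5 (1.69 and 7.23 FPKM) and Kcnj8 (7.98 and 20.4 FPKM) were higher, Cspg4, the proteoglycan NG2 (20.4 and 12.2 FPKM), was 1.63-fold lower, and Pdgfrb, the most abundant mural marker, had 38.4 and 33.7 FPKM. Of the 8 mural markers past the filter, 3 were higher and 5 lower (62.5% lower, against 51.6% of all genes). Past a fold of 1.5, 2 of them were higher, 25% against 5.33% of all genes, and 3 were lower, 37.5% against 3.57%. Of the 8 fibroblast markers past the filter, 2 were higher and 6 lower (75% lower, against 51.6% of all genes). Col1a2, 1.57-fold lower, was the only one past a fold of 1.5, 12.5% against 3.57% of all genes. In the other direction 0 passed this fold, against 5.33% of all genes. Thy1 was 1.33-fold lower, Dpep1 was 1.35-fold higher at 11.8 and 16.3 FPKM, and Pi16 had 99.6 and 101 FPKM. Their part in the values of the matrix genes was not tested.

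For 2 of the 10 genes, Fn1 and Postn, the side of the threshold or the direction depended on how the values were treated. After quantile normalization Fn1 had a log2 ratio of -0.64 and passed the fold of 1.5, and with only the highest row of a symbol Postn had a log2 ratio of 0.48. Dcn was past the fold of 1.5 under every setting tried, with log2 ratios from 0.82 after quantile normalization to 1.22 with its highest row alone, but was past a fold of 2 only without quantile normalization. Tnc ranged from 0.60 to 0.68 and Eln from -1.67 with a pseudocount of 0.1 to -1.24.

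**Figure D5:**
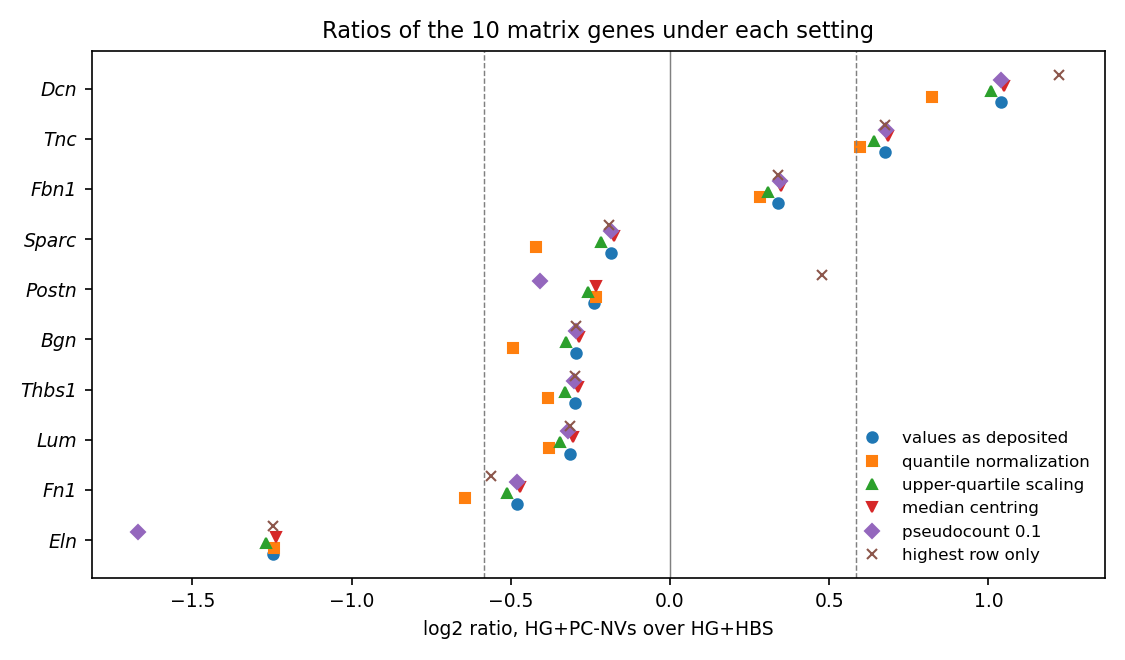
Log2 ratio, HG+PC-NVs over HG+HBS, of each of the 10 matrix genes as deposited and under 5 alternative settings, with dashed lines at a fold of 1.5. Dcn and Tnc lie right of the upper line and Eln left of the lower line under all 6, Fn1 crosses the lower line after quantile normalization, and Postn changes side with its highest row alone.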

How the data were processed

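MCEC RNA was sequenced as 1 library per condition. The authors selected poly(A) RNA, made SMARTer Stranded libraries, sequenced paired ends, trimmed the reads, aligned them with TopHat to mm10, estimated FPKM in Cufflinks and used edgeR in R for normalization. The versions and the annotation are not given in the sources used here. The authors deposited log2 values, read here as log2(normalized FPKM + 1), for 33299 transcript rows.

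Values were used as deposited, converted to FPKM, and rows of a symbol were summed. The methods name quantile normalization, but sorted values differ by over 0.05 in 2318 rows and by up to 0.92, so a further quantile step was an alternative. So were upper-quartile scaling, median centring, a pseudocount of 0.1 in place of 1, the highest row alone, other filters (none, or a mean log2 of at least 3) and a fold of 2. No p-value was computed. The worth of 1 fragment was the most frequent low FPKM times length over 2189 genes with a single transcript over 1500 nt. Linear ratio intervals are 95% Wilson intervals and level intervals exact Poisson. Calculations were tested on simulated data.

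The members and lists were chosen with earlier results of these data known. Named were the 10 genes, Mgp, and from each list up to 4 genes with the largest ratios past a fold of 1.5 and the 2 with the highest levels, besides marker genes. Kera, Epyc, Omd, Aspn, Ogn, Fstl1 and Agrn were added after their values were seen. Lengths are from GENCODE M21. Software was scipy 1.17.1, pandas 2.3.3, numpy 2.4.6 and, for plots, matplotlib 3.10.9, under Python 3.11.15.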

Additional observations from a re-analysis of the deposited data

How the results depend on the processing

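Of 44 alternative log2 ratios of the 10 genes, 43 kept their direction, 43 kept their side of the fold of 1.5, and 30 stayed within counting error. For the 6 genes with a single row, the highest row alone is the value itself and was not counted. The exceptions were Postn with the highest row alone (0.48) and Fn1 after quantile normalization (-0.64). A smaller pseudocount cannot reverse a direction. Median centring and upper-quartile scaling moved the median over all genes by 0.01 and -0.03, whereas the ratio nearest to no change, that of Sparc, was -0.18. Most of the kept directions were thus fixed in advance and do not show stability. With quantile normalization the median log2 ratio of the 10 genes was -0.38 in place of -0.27, and 2 of them were lower past a fold of 1.5 in place of 1. With a fold of 2, 1 of the 10 genes was higher, and of the other matrix genes 1 was higher and 4 were lower, in place of 4 and 9. The other alternatives left these counts within 1.5 times. Their medians moved by less than the median half-width of the single-gene counting intervals, 0.042 for the 10 genes and 0.105 for the other matrix genes. That half-width is not the error of a median. The median of the other matrix genes was -0.21 after quantile normalization and -0.10 over 85 genes without a filter, in place of -0.17. The median over all genes moved by at most 0.03. Over all genes, 421 were lower past a fold of 1.5 and 683 with a pseudocount of 0.1. The cause of these shifts was not tested. Depth limits Postn and Eln most. No paired analysis was possible because each condition has a single library, which also left no replicate to leave out.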
